A study of Homo sapiens with 4 samples.

Results

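The cytosolic heat shock chaperones and their cochaperones were examined in Ewing sarcoma (EWS) cells that had received exosomes (EXOs) from CD99-silenced cells. The set holds 48 genes chosen by symbol: the heat shock factors HSF1 and HSF2, the HSP70 and HSP110 chaperones, HSP90 with its cochaperones, the HSP40 family, the BAG proteins and STUB1, small heat shock proteins, subunits of the TRiC chaperonin, and 5 chaperones that work in mitochondria (HSPA9, TRAP1, HSPD1, HSPE1 and DNAJA3), which the name of the set does not cover. A gene was measured where the array annotation gives a transcript cluster, the unit that the array reports, that symbol alone, and 45 of the 48 were, each by 1 cluster, among 22085 genes and 67539 clusters in all. The clusters of HSPA8, CDC37 and TCP1 each carry several symbols, so these genes have no value here. Chaperones of the endoplasmic reticulum (ER) were left out of the set. Its members were chosen with earlier results of these data known.

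RNA came from TC-71, an established EWS cell line, on 4 GeneChip Human Transcriptome Array 2.0 arrays. Both arrays of the first group held untreated TC-71 cells (replicates A and B). Both arrays of the second (replicates C and D) are labelled TC71+exoTCsiCD99 and named TC-71 + TC-CD99neg EXOs here, after the paper. They held TC-71 cells given EXOs of a TC-71 line that the paper describes as stably silenced for CD99 by a short hairpin RNA. The dose was 10 µg for every 5000 cells and the exposure lasted 24 h. The labels call the arrays of each group biological replicates. The untreated cells received no EXOs of any kind. Serum-free medium is stated only for the incubation with EXOs before functional assays, and the medium of the untreated cells is not stated. The arrival of EXOs, their CD99neg origin and the medium therefore cannot be told apart. The deposited values are log2 signals. The paper reports quantile normalization between arrays, but the array medians of the deposited values differ slightly.

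Chaperones bind unfolded or partly folded proteins and help them to reach or regain their shape. In the cytosol, HSP40 (DNAJ) proteins bring clients to HSP70 and start its ATP cycle, HSP110 and BAG proteins release the nucleotide, and the adaptor STIP1 hands clients on to HSP90, whose own cycle is tuned by AHSA1, PTGES3 and the FKBP immunophilins. TRiC, a ring of CCT subunits, folds actin and tubulin. The transcription factor HSF1 induces many of these genes under proteotoxic stress by binding heat shock elements, which are inverted repeats of a short GAA unit, and tumour cells commonly depend on this system.

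Heat shock elements in the promoters of the members are shown first, because they are the known binding motif of HSF1. RefSeq promoter windows (GRCh38.p14, 250 bases before to 50 after a start site) were found for 43 of the 48 genes, in 63 windows, and were searched for 3 repeats (GAANNTTCNNGAA or TTCNNGAANNTTC) and for 2 repeats (GAANNTTC or TTCNNGAA, which also lie within every run of 3). The runs of 3 are reverse complements of each other and each pair is its own, so both strands were covered. The run of 3 repeats was found in 7 of the 63 windows (11.1%), against 0.49% of all 35116 windows, and the pair of repeats in 20 (31.7%), against 13.5%. HSF1 targets were among the genes the set was made to hold, so these higher shares were built into the choice of members. The matches describe the letters and are not bound sites. In the stretches below, capitals mark the runs of 3 repeats, or the pairs in HSPA4L and DNAJB1, while a separate pair of CHORDC1 at -23 to -16 stays in lower case. They are written 5′ to 3′ on the strand of the gene. CHORDC1 is shown because it was among the genes that fell most, HSP90AA1 and HSP90AB1 because they are the paired HSP90 genes of the cytosol, DNAJB6 because it holds a run of 3 repeats at a log2 fold change of only -0.08, and HSPA4L and DNAJB1 because they had the largest decreases of their families and hold pairs only.
CHORDC1, chr11:90223050-90223149, minus strand, -100 to -1: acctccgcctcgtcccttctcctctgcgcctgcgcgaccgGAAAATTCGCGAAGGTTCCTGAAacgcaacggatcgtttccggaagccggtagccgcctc
HSP90AA1, chr14:102087112-102087140, minus strand, -96 to -68: gagggttcTTCCGGAAGGTTCgggaggct
HSP90AB1, first match, chr6:44247770-44247798, plus strand, -173 to -145: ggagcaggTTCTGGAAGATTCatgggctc
HSP90AB1, second match, chr6:44247823-44247851, plus strand, -120 to -92: tgagattgTTCTGGAAGCTTCtggattct
DNAJB6, chr7:157336833-157336925, plus strand, -171 to -79: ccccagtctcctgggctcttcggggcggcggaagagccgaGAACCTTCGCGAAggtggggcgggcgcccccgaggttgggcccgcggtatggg
HSPA4L, chr4:127782141-127782170, plus strand, -181 to -152: tttccagatctTTCTCGAAcccgcagcttc
DNAJB1, first match, chr19:14518456-14518485, minus strand, -88 to -59: cgggcggggcgGAAGGTTCtggagggggct
DNAJB1, second match, chr19:14518426-14518455, minus strand, -58 to -29: ggcgggctctgGAAGCTTCcgccggacggg

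After exposure to CD99neg EXOs, 19 of the 45 chaperone transcripts were lower at the adjusted p, most by less than 1.5-fold. A gene was called where limma, with Benjamini-Hochberg adjustment over all 67539 clusters, gave an adjusted p of at most 0.05 and a fold of at least 1.5, and every change is given as exposed minus untreated. By this rule 3 of the 45 genes fell (6.67%, where 0.964% of all 22085 genes and 1.04% of all clusters did). Of the rest, 0 rose (1.13% of all genes and 1.54% of clusters) and 42 were not called. The 3 called were HSPA4L, CHORDC1 and STIP1. An equal-variance test that shares no spread between clusters called 0 of them, as it did of all clusters. At an unadjusted p of at most 0.05 by limma, 28 members were lower and 3 higher. Of all 22085 genes, 3447 were lower and 2902 higher at that p. At the adjusted p alone 19 of the 45 were lower (42.2%, against 6.98% of all genes and 4.28% of clusters) and 0 were higher (5.84% and 5.42%). As the members were chosen with earlier results of these data known, such shares describe them and are not a test of the set. The median log2 fold change of the 45 was -0.22, with a range of -1.06 to 0.19, and that of all genes was 0.00. Both exposed arrays lay below both untreated arrays for 33 of the 45 genes (73.3%, against 26.6% of all genes), above them for 5 (25.9% of all genes), and the arrays of the groups overlapped for 7. After normalization between arrays, values are relative to the other clusters of an array, and in such bulk RNA fewer cells with a transcript and less of it per cell cannot be told apart.

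Many chaperone genes gave bright signals, and bright genes were called lower more often, so the share among bright genes is the closer background. Of the 45 genes, 22 lay in the top decile of all genes by mean signal. Among these 22, 11 were lower at the adjusted p alone (50%), against 16.3% of the 2209 genes of that decile, and 0 were higher, against 13.2%. By the full rule 1 of the 22 fell (1.95% of the decile) and 0 rose (2.31%). Both exposed arrays lay below both untreated arrays for 21 of them (43.6% of the decile) and above for 0 (33.3%), and their median change was -0.39 against -0.03. The other 23 members had 8 lower at the adjusted p (34.8%), against 5.94% of the other genes. These counts depended on each array: without replicate B 5 of the 45 were lower at the adjusted p (HSPA4L, STIP1, CHORDC1, FKBP4 and DNAJB1), without C 6, without D 9 and without A 14. Over all clusters the number lower at the adjusted p went from 2888 to 749, 900, 1340 and 1231 in the same order, and the median change of the 45 members stayed between -0.28 and -0.20. Replicate B stood above A for 34 of the 45 members, by a median of 0.08, and the median of B minus A over the top decile of all genes was also 0.08. With each array centred on its median, with cyclic loess and with a further quantile normalization, 20, 20 and 23 members were lower at the adjusted p.

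**Figure D1:**
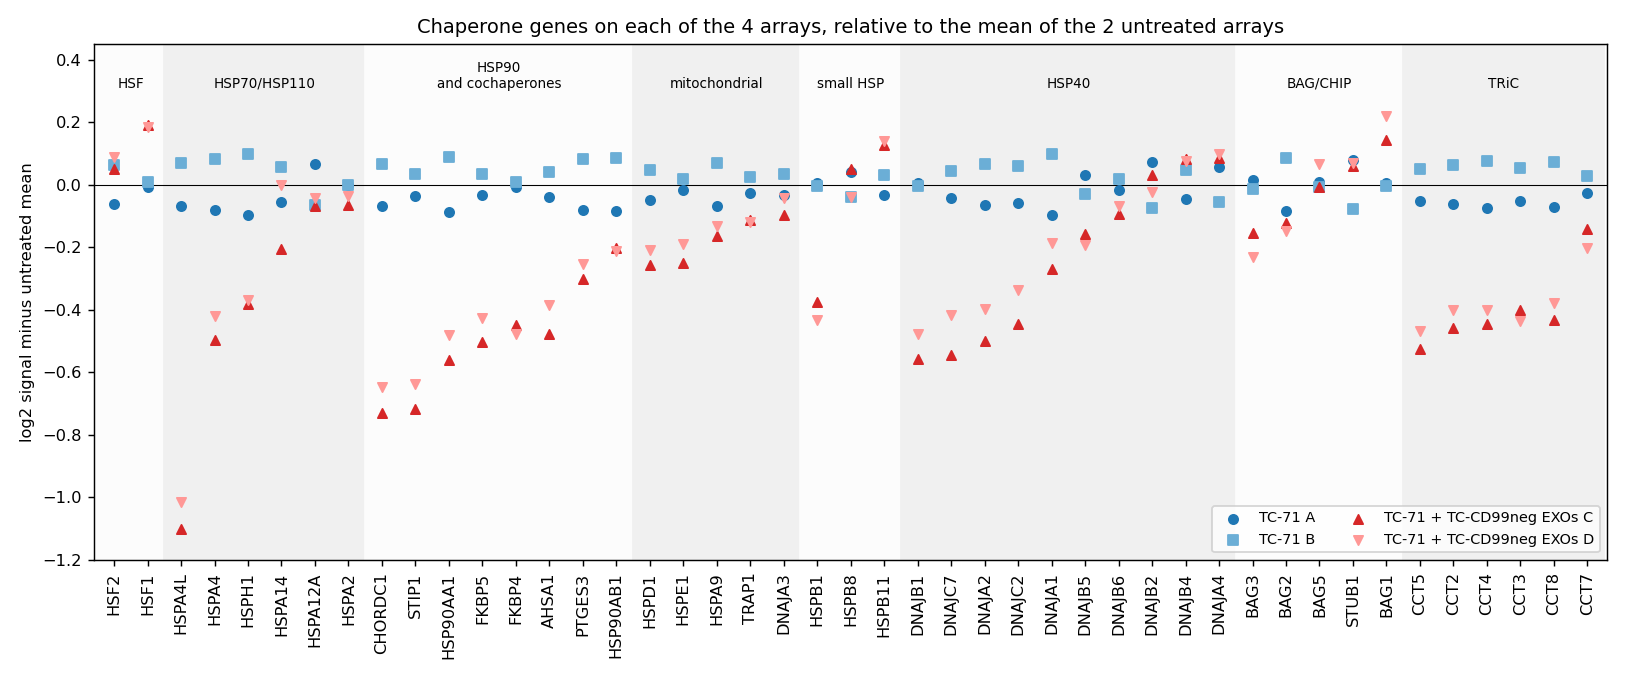
Log2 signal of each of the 45 chaperone genes on each array, minus the mean of both untreated arrays of that gene (y axis), with the genes on the x axis grouped by role and ordered by change within a role. Blue points are TC-71 replicates A and B and red points are the exposed replicates, C and D. Both red points lie below both blue points for 33 genes.

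HSP90 and its cochaperones held 2 of the 3 called genes. All 8 of its measured genes had both exposed arrays below both untreated arrays, 2 fell by the full rule and 6 were lower at the adjusted p, with a median log2 fold change of -0.46. Of all genes, 26.6% had both exposed arrays below, 0.964% fell by the full rule and 6.98% were lower at the adjusted p. In the top decile by signal these shares were 43.6%, 1.95% and 16.3%. CHORDC1, an HSP90 cochaperone with zinc-binding CHORD domains, had log2 signals of 8.06 and 8.19 in untreated cells (A and B) and of 7.40 and 7.48 in exposed cells (C and D). Both untreated arrays were the higher ones, by far more than the gap within either group. CHORDC1 fell by 0.69 on the log2 scale (standard error 0.06, limma adjusted p = 0.0102), a 1.61-fold decrease. STIP1, the adaptor that joins HSP70 to HSP90, had 10.52 and 10.59 in untreated and 9.84 and 9.92 in exposed cells. These groups were likewise well apart, and STIP1 fell by 0.68 (standard error 0.05, limma adjusted p = 0.00726), a 1.60-fold decrease.

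HSP90AA1, the stress-inducible cytosolic HSP90, had 10.99 and 11.17 in untreated and 10.52 and 10.60 in exposed cells. It did not reach the fold of 1.5, with a log2 fold change of -0.52 (95% interval -0.72 to -0.33, adjusted p = 0.0229), but it did without replicate A (-0.61, adjusted p = 0.0439). Without B, C or D it no longer passed the adjusted p (0.0619, 0.0862 and 0.0564). HSP90AB1, the constitutive form, had 11.40 and 11.57 in untreated and 11.28 and 11.27 in exposed cells. Here the exposed arrays were lower by little more than the gap between A and B, and the log2 fold change of -0.21 (95% interval -0.39 to -0.03, adjusted p = 0.160) did not pass. The change of HSP90AA1 minus that of HSP90AB1 was -0.31, with an exact two-sided permutation p of 0.333, the smallest that 2 arrays against 2 allow. It was 1 of 7 such pairs compared, and the p adjusted over them was 0.389. Whether probes read related genes or pseudogenes was not tested.

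The remaining cochaperones of HSP90 had log2 fold changes between -0.47 and -0.28. FKBP4, an immunophilin (FKBP52) that assists steroid receptors, had 9.51 and 9.53 in untreated and 9.07 and 9.04 in exposed cells. Its replicates agreed within 0.03, and its log2 fold change of -0.46 had an adjusted p of 0.00827 from limma, below the fold of 1.5. FKBP5, the related FKBP51 that holds steroid receptors back, had 8.15 and 8.21 in untreated and 7.68 and 7.75 in exposed cells, and a log2 fold change of -0.47 (adjusted p = 0.0129). AHSA1, which stimulates the ATPase of HSP90, had a log2 fold change of -0.43 (adjusted p = 0.0182). PTGES3, the p23 protein that closes the HSP90 cycle, had -0.28 and did not pass (95% interval -0.45 to -0.10, adjusted p = 0.0812). FKBP5 is also known to be induced by glucocorticoids.

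**Figure D2:**
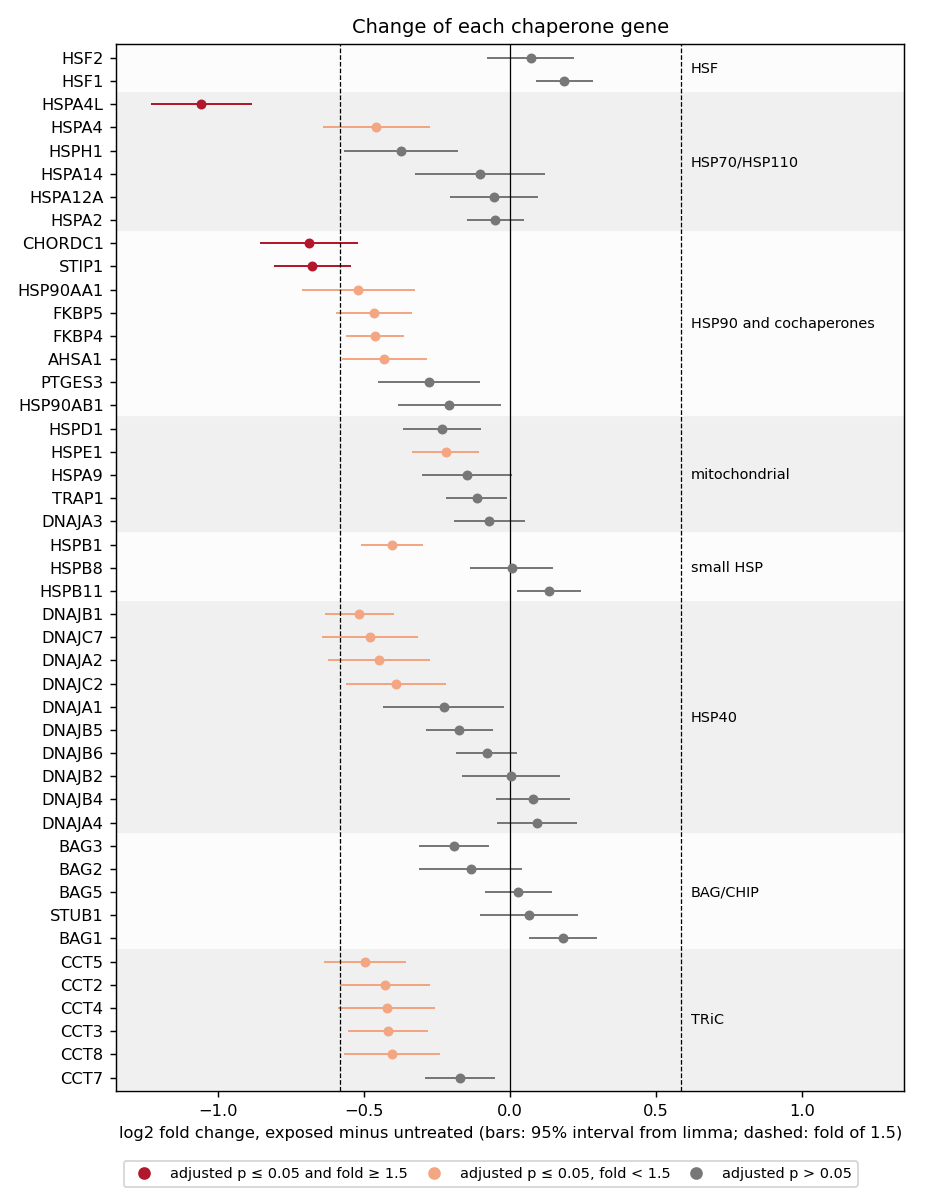
Log2 fold change of each chaperone gene (x axis, exposed minus untreated, n = 2 arrays each) with its 95% interval from limma, by role. Dark red marks the 3 genes called lower (HSPA4L, CHORDC1 and STIP1), light red the 16 that passed the adjusted p but not the fold of 1.5 (dashed lines), and grey the 26 that did not pass.

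HSPA4L gave the largest change of the set. It encodes a member of the HSP110 family, which serve as nucleotide exchange factors of HSP70. Its log2 signal was 8.43 and 8.57 in untreated and 7.40 and 7.49 in exposed cells. The groups were far apart, and HSPA4L fell by 1.06 on the log2 scale (standard error 0.07, limma adjusted p = 0.00553), a 2.08-fold decrease. It ranked 20 among the decreases of all 22085 genes. HSPA4, its close relative, had 9.36 and 9.53 in untreated and 8.95 and 9.02 in exposed cells (log2 fold change -0.46, adjusted p = 0.0269). HSPH1, the third HSP110 gene and itself heat inducible, had 10.24 and 10.44 in untreated and 9.96 and 9.97 in exposed cells, and its log2 fold change of -0.38 narrowly missed the threshold (adjusted p = 0.0507). The change of HSPA4L minus that of HSPA4 was -0.60 (exact two-sided permutation p = 0.333, the smallest possible, and 0.389 adjusted over the 7 pairs). The HSP70 relatives HSPA14, HSPA12A and HSPA2 had -0.10, -0.06 and -0.05, and none passed (adjusted p = 0.639, 0.735 and 0.590). HSPA2, a form best known from testis, had 6.55 and 6.55 in untreated and 6.49 and 6.52 in exposed cells, and HSPA14 works with DNAJC2 at the ribosome.

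Among 10 HSP40 genes, 4 were lower at the adjusted p and 0 reached the fold of 1.5, with a median log2 fold change of -0.20. The share lower at the adjusted p was 6.98% over all genes and 16.3% in the top decile by signal. DNAJB1, the main heat-inducible HSP40, had 7.84 and 7.84 in untreated and 7.28 and 7.36 in exposed cells. The untreated replicates were all but equal, and its log2 fold change of -0.52 had an adjusted p of 0.00917 from limma. DNAJC7, which carries TPR repeats that bind both HSP70 and HSP90, had 8.63 and 8.72 in untreated and 8.13 and 8.26 in exposed cells (log2 fold change -0.48, adjusted p = 0.0194). DNAJA2, a partner of HSP70 in refolding, had -0.45 (adjusted p = 0.0250), and DNAJC2, the HSP40 of the ribosome, -0.39 (adjusted p = 0.0335). DNAJA1, DNAJB5 and DNAJB6 had -0.23, -0.17 and -0.08 and did not pass. DNAJB2, DNAJB4 and DNAJA4 had 0.00, 0.08 and 0.09, the last being the largest value above 0 in the family: DNAJA4 had 6.74 and 6.63 in untreated and 6.77 and 6.79 in exposed cells (95% interval -0.04 to 0.23, adjusted p = 0.430).

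Most TRiC subunits were lower at the adjusted p. The 6 measured ones had both exposed arrays below both untreated arrays, 5 were lower at the adjusted p and 0 reached the fold of 1.5, with a median log2 fold change of -0.42. In the top decile of all genes by signal, 43.6% had both exposed arrays below and 16.3% were lower at the adjusted p. CCT5 had 8.81 and 8.91 in untreated and 8.34 and 8.39 in exposed cells, which gave -0.50 (adjusted p = 0.0131 from limma). CCT2, CCT4, CCT3 and CCT8 followed with -0.43, -0.42, -0.42 and -0.41 (adjusted p = 0.0210, 0.0255, 0.0171 and 0.0278). These 5 values lay close to each other. CCT7 had 9.33 and 9.38 in untreated and 9.21 and 9.15 in exposed cells, and its log2 fold change of -0.17 did not pass (95% interval -0.29 to -0.05, adjusted p = 0.101). CCT2, CCT3, CCT4 and CCT8 no longer passed the adjusted p when replicate B, C or D was left out, nor did CCT5 without B or C.

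Of the 3 small heat shock proteins 1 was lower at the adjusted p, and of the 4 BAG genes and STUB1 0 were. Over all genes 6.98% were lower and 5.84% higher at the adjusted p. These groups are too small to set against that share. HSPB1 (HSP27), a holdase that keeps unfolded proteins soluble, had 9.65 and 9.64 in untreated and 9.27 and 9.21 in exposed cells. Its arrays were tight within each group, and its log2 fold change of -0.41 had an adjusted p of 0.0119 from limma, below the fold of 1.5. HSPB8, a partner of BAG3 in selective autophagy, had 0.01 (95% interval -0.14 to 0.15) at a signal near the medians of the arrays. HSPB11, which works in transport along cilia, had 6.81 and 6.87 in untreated and 6.97 and 6.98 in exposed cells (0.13, adjusted p = 0.152). Of the 4 BAG genes and STUB1, a ubiquitin ligase that sends chaperone clients to the proteasome, 0 passed the adjusted p by limma. At an unadjusted p of at most 0.05, BAG3 was lower and BAG1 higher, as were 3447 and 2902 of all 22085 genes. BAG3, which HSF1 also induces, had 7.48 and 7.45 in untreated and 7.31 and 7.23 in exposed cells (log2 fold change -0.19, adjusted p = 0.0781). BAG1 had 6.52 and 6.51 in untreated and 6.66 and 6.73 in exposed cells (0.18, adjusted p = 0.0863), BAG2 had -0.14, BAG5 0.03 and STUB1 0.06.

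The mitochondrial chaperones had small log2 fold changes. In all 5 both exposed arrays lay below both untreated arrays, 1 passed the adjusted p and 0 the fold, and the median log2 fold change was -0.15. Over all genes, 26.6% had both exposed arrays below and 6.98% were lower at the adjusted p. In the top decile by signal these shares were 43.6% and 16.3%, so 1 of 5 passing was near the share of bright genes. HSPD1 (HSP60) and HSPE1 (HSP10), which together form the folding chamber of the matrix, stand head to head in the genome, with the nearest start sites of RefSeq 105 bases apart. HSPD1 had 8.81 and 8.91 in untreated and 8.60 and 8.65 in exposed cells, which gave -0.23 (adjusted p = 0.0636 from limma). HSPE1 had 7.66 and 7.69 in untreated and 7.42 and 7.49 in exposed cells, which gave -0.22 (adjusted p = 0.0499). The values of this pair were thus almost equal and lay at the threshold. HSPA9, the HSP70 of the matrix, had -0.15, TRAP1, its HSP90, -0.12, and DNAJA3, its HSP40, -0.07, and none of these passed (adjusted p = 0.246, 0.188 and 0.519). DNAJA3 had 8.48 and 8.54 in untreated and 8.41 and 8.47 in exposed cells, so that its groups nearly touched.

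HSF1 and HSF2 had values above 0. HSF1, the master regulator of the response, had 8.12 and 8.13 in untreated and 8.31 and 8.31 in exposed cells. The exposed arrays were thus the higher ones, and the log2 fold change of 0.19 (95% interval 0.09 to 0.28) missed the adjusted p (0.0503), as it did the fold of 1.5. It passed the adjusted p with cyclic loess, another quantile normalization or identical clusters counted once. HSF2, which can pair with HSF1, had 7.43 and 7.55 in untreated and 7.54 and 7.58 in exposed cells, with overlapping groups (0.07, adjusted p = 0.638). The transcript level of HSF1 does not show its activity, which is set by its release from chaperones and by modification of the protein.

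Members with and without a motif match in their windows had near-equal medians. Only exact repeats from 250 bases before to 50 after a start site were counted. A member without a match may therefore still have a heat shock element, as BAG3 and HSPH1, both heat inducible, had no match. The 6 measured genes with a run of 3 repeats had log2 fold changes of -0.69 (CHORDC1), -0.52 (HSP90AA1), -0.23 (HSPD1), -0.23 (DNAJA1), -0.21 (HSP90AB1) and -0.08 (DNAJB6). Their median was -0.23, against -0.25 for the 34 measured members whose windows hold no such run, and 2 of the 6 and 16 of the 34 were lower at the adjusted p. CHORDC1, with overlapping runs over bases -60 to -38, was called, while HSP90AB1, with separate runs at -165 and -112, did not pass. With 2 repeats, 8 of 17 genes were lower at the adjusted p, against 10 of 23 without, and the medians were -0.23 and -0.22. All 3 called genes hold a pair of repeats, but so do 17 of the 40 measured members with a window. The pair lies 170 bases before the start in HSPA4L and 14 bases after it in STIP1. No test was made of these counts.

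**Figure D3:**
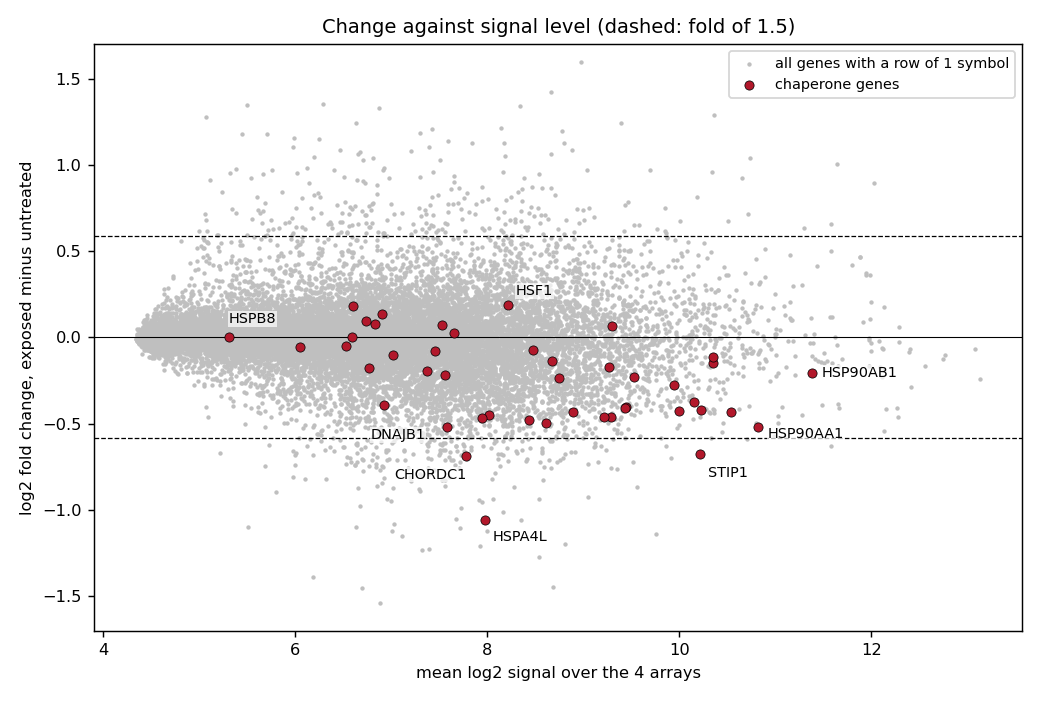
Log2 fold change (y axis, exposed minus untreated) against the mean log2 signal over the 4 arrays (x axis) for all 22085 genes (grey) and the 45 chaperone genes (red), with 4 grey genes beyond the axis. Chaperone genes of high signal lie below 0 in 21 of 22 cases in the top decile, and those of lower signal are more evenly spread.

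Other genes of the cytosolic network were read from a further list. Of 29 measured out of 37 listed genes, 2 fell, 0 rose, and 5 were lower and 1 higher at the adjusted p, with a median log2 fold change of -0.04. Over all genes 0.964% fell and 1.13% rose, and 6.98% were lower and 5.84% higher at the adjusted p. SUGT1, an HSP90 cochaperone, had a log2 fold change of -0.76 (adjusted p = 0.0185 from limma). HSPA1A, the inducible HSP70, had 9.58 and 9.55 in untreated and 8.84 and 8.98 in exposed cells, which gave -0.66 (adjusted p = 0.0101). HSPA1A was read by 4 clusters of alternative assemblies of the same region, between -0.66 and -0.64, which are not separate genes, and its coding sequence is nearly that of HSPA1B, so that the pair cannot be told apart. CCT6A, a TRiC subunit outside the set, had -0.37 (adjusted p = 0.0445). HSPA6, a strictly inducible HSP70, had 0.03, and the small heat shock protein HSPB6 had 0.57 (adjusted p = 0.0305). Prefoldin brings clients to TRiC, and 9 genes of prefoldin and prefoldin-like proteins (UXT, URI1 and PDRG1) were listed. Of these 9, 0 were called by limma and 4 were lower at an unadjusted p of at most 0.05, as were 3447 of all 22085 genes. The largest changes were -0.44 (PFDN2, adjusted p = 0.0524) and -0.23 (UXT). Of 19 genes of mitochondrial import and quality control 0 were called by limma, with 3 lower and 2 higher at the adjusted p and a median of 0.00. At an unadjusted p of at most 0.05, 7 were lower and 2 higher, against 3447 and 2902 of all 22085 genes. The largest absolute changes were those of DNAJC15 (0.54) and PAM16 (0.42), and the lowest value was that of HTRA2 (-0.36, adjusted p = 0.0142).

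**Figure D4:**
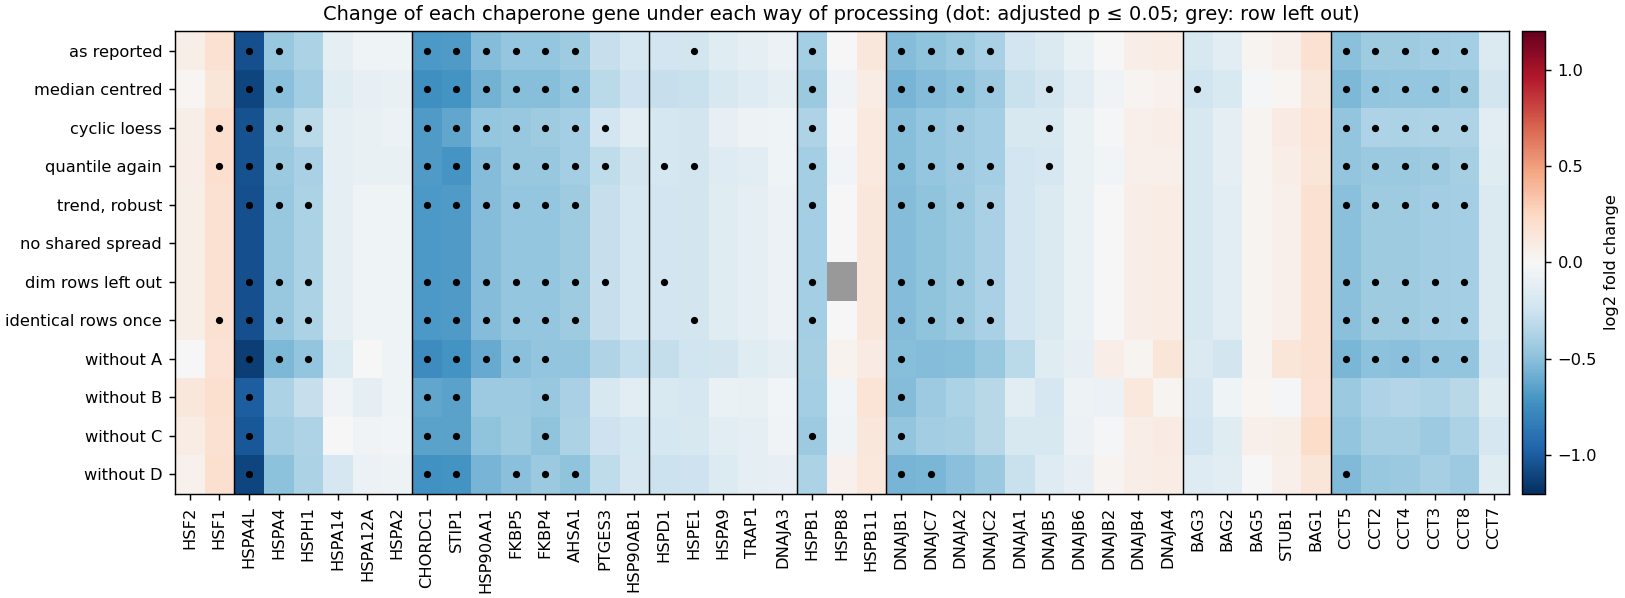
Log2 fold change of each chaperone gene (columns, grouped by role) under each way of processing (rows), from blue for lower to red for higher in exposed cells, with a black dot where the adjusted p was at most 0.05. HSPA4L, CHORDC1 and STIP1 carry a dot in every row but the test without a shared spread, and many of the others lose theirs when 1 array is left out.

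The array medians were 5.42, 5.38, 5.45 and 5.44 for A to D. EWS markers were present: CD99 had 9.93 and 9.98 in untreated and 10.24 and 10.25 in exposed recipient cells, and STEAP1 had 9.23 and 9.38 against 8.73 and 8.76. Of 9 measured markers 1 was called, NR0B1, an EWS-FLI1 target, with -0.62 (adjusted p = 0.0137 from limma). At the adjusted p alone 2 were lower, NR0B1 and STEAP1, and 3 were higher, CAV1 (0.32, adjusted p = 0.0309), CD99 (0.29, adjusted p = 0.0231) and NKX2-2 (0.23, adjusted p = 0.0374). By qPCR and by flow cytometry, the paper saw no significant change of CD99 in TC-71 cells given CD99neg EXOs. Of 11 markers of other cell types, 10 had an adjusted p of at least 0.526, with levels in untreated cells between 4.54 and 6.09 over the list. DCN, a fibroblast marker, had 5.39 and 5.35 in untreated and 5.83 and 5.94 in exposed cells (0.52, adjusted p = 0.0120), and its part in the result was not tested.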

How the data were processed

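In GeneSpring, the authors used ExonRMA16 for summarization and report quantile normalization without baseline transformation. They deposited log2 values of 67539 transcript clusters, used unchanged. The medians of these values differed (5.42, 5.38, 5.45 and 5.44 for A to D), so the arrays did not share 1 distribution at the level of clusters. The array annotation's genome build: not given in the sources used here. The platform table gives 23383 clusters exactly 1 symbol, 1225 several and 42931 none. Unnamed clusters entered the fit only. Where a gene had several clusters, the brightest by mean was taken.

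All clusters were fitted in R 4.3.3 by lmFit and eBayes of limma 3.58.1, with 2 residual and 2.59 prior degrees of freedom, no covariate and Benjamini-Hochberg adjustment. A call needed a fold of 1.5 and an adjusted p of 0.05. Intervals are 95% from the moderated fit. The fit was checked on simulated data. Members, lists and the motif were chosen with earlier results of these data known. Every member may be named. Values on each array are given for called members, for the largest rise and fall of each role and for others of interest, and of other lists the called genes or both largest changes are named. Further genes were named after their values were seen. Alternatives covered the scale between arrays, the variance model, moderation, dim and identical clusters, thresholds and each array left out. Arrays have no read depth, and their number limits the precision.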

Additional observations from a re-analysis of the deposited data

How the results depend on the processing

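At the fold of 1.5, HSPA4L, CHORDC1 and STIP1 were called lower under every alternative except the equal-variance test with no sharing of the spread between clusters. That test called 0 members, left 0 lower at the adjusted p alone and called 0 of all clusters (adjusted p of 0.213, 0.237 and 0.213 for these genes). At its unadjusted p of at most 0.05, 23 members were lower, against 28 by limma, where 3447 of all 22085 genes were. The matching count over all genes was not made for the equal-variance test. The count of called members was 19 at the adjusted p alone and 1 (HSPA4L) at a fold of at least 2. It was 3 to 4 with 1 array left out, where the additional gene without replicate A was HSP90AA1. The number lower at the adjusted p alone, added after seeing the data, was 5 to 14 with 1 array left out (5 without B, 6 without C, 9 without D, 14 without A), where the number over all clusters fell from 2888 to between 749 and 1340. It was 19 to 23 under the scaling, trend and filter alternatives. No member was called higher under any alternative. HSF1 passed the adjusted p toward higher in 3 of 11 alternatives. Each measured member had 1 cluster, so averaging clusters changed nothing. No paired analysis was possible because untreated arrays carry letters A and B and exposed arrays C and D. Leaving out an array assumes that the lone array of its group varies like the other group.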

Other observations

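Genes of neighbouring folding and degradation pathways were examined in the same fit, where 0.964% of all genes fell, and 6.98% were lower and 5.84% higher at the adjusted p. Of 16 measured ER chaperones, which fold secreted and membrane proteins, 1 fell, 0 rose and 6 were lower at the adjusted p, with a median log2 fold change of -0.20 and all 16 values below 0. CALR, a calcium-binding lectin chaperone, had a log2 fold change of -0.63 (adjusted p = 0.00609 from limma), and HSPA5, the HSP70 of the ER, had -0.49 (adjusted p = 0.0146). Of 31 proteasome subunits 1 fell, 0 rose, and 10 were lower and 1 higher at the adjusted p, with a median of -0.21. PSMA3, a subunit of the core, had -0.59 (adjusted p = 0.0197), whereas PSMD11, a subunit of the lid, had 0.50 (adjusted p = 0.0150). Of 12 glucocorticoid-responsive genes 0 were called by limma, and 8 values were below 0 and 4 above. At an unadjusted p of at most 0.05, 4 were lower, as were 3447 of all 22085 genes. The largest absolute changes were those of DUSP1 at -0.58 (adjusted p = 0.0254) and ERRFI1 at -0.23 (adjusted p = 0.139), and the highest value was 0.12 (ZBTB16).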
